A study of Mus musculus with 9 samples.

Results

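The control libraries of the study give the transcriptome of the proximal mouse epididymis in animals whose lumicrine signalling is intact. They are 3 of the 9 RNA-seq libraries, chosen by genotype alone, and were prepared from the IS-caput epididymis, the initial segment (IS) dissected together with the adjoining caput, of Nicol+/- males (Nicole+/- in the labels) given as 14 weeks old. The other 6 libraries, from Nicol-/- and Ros1-/- mice, were not compared here. Each Nicol+/- mouse carried 1 wild-type allele of Nicol, listed in the files as Gm1673, and 1 em1 allele from which the coding sequence was deleted by CRISPR/Cas9 in the mixed B6D2F1 background, so these are heterozygotes and not wild-type mice. The series description speaks of 4 samples per genotype and 3 are listed for this one. No source used here says how many animals stand behind each library, and the spread below is therefore that between 3 libraries and may be partly technical.

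The epididymis is a long coiled duct in which spermatozoa from the testis mature. Its principal cells secrete proteins into the lumen, and the set of proteins changes from one segment to the next, so that the IS and the caput make partly different products. The IS epithelium depends on factors that arrive with the testicular fluid, among them NELL2 and NICOL, which act on the receptor ROS1.

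Expression was read as normalized FPKM, the reads of a gene per kilobase of its length and relative to library size, as scaled by the authors, for 24346 genes. Summed FPKM was 667523, 745093 and 732021 in replicates 1, 2 and 3. The estimated depth was 8189637, 16595544 and 15636579 reads, so replicate 1 was the shallowest. At 1 FPKM or more, 13148, 12928 and 13024 genes were detected, of which 12466 were detected in all 3 libraries. Genes at 1000 FPKM or more numbered 98, 110 and 91.

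Transcripts of secreted proteins headed the ranking. Gpx5, which encodes an androgen-dependent glutathione peroxidase secreted by the caput, ranked first in every library with 23430.1, 34999.7 and 36736.4 FPKM, or 31722 ± 7233 FPKM (SD, n = 3). It alone held 4.41 ± 0.795% of all FPKM (SD, n = 3), and replicate 1 was the lowest. Spag11b, a beta-defensin-like epididymal gene, followed with 12190.8, 18396.9 and 21476.9 FPKM, and Lcn8, a lipocalin of the epididymal lumen, with 10553.2, 13222.8 and 17504.4 FPKM. Replicate 1 was lowest and replicate 3 highest for each of these 3 genes. Defb25, a beta-defensin, had 8673.61, 11003.8 and 13154.3 FPKM. The first 10 places by mean FPKM were completed by Mir703, Defb18, Clu, Lcn5, Defb20 and Defb48. Clu encodes the extracellular chaperone clusterin and Lcn5 a retinoid-binding lipocalin.

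**Figure D1:**
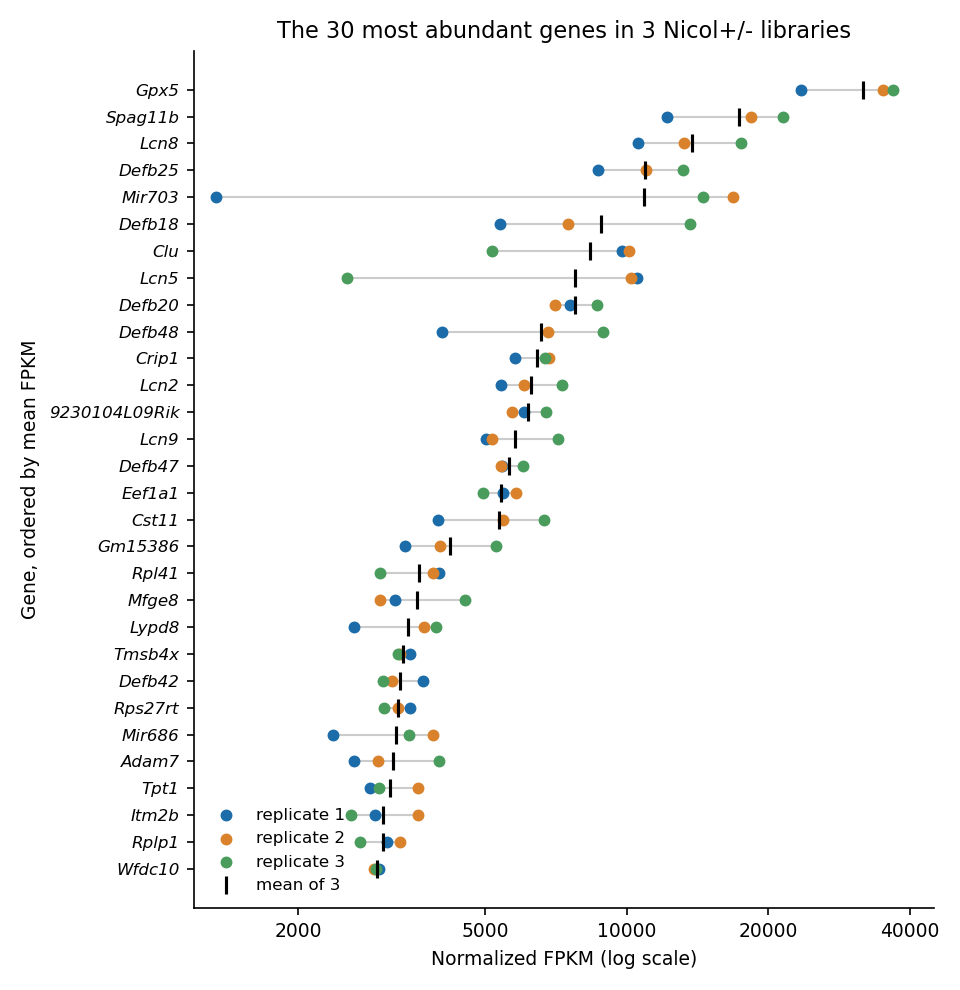
Normalized FPKM (log axis) of the 30 genes with the highest mean, with 1 point per Nicol+/- library, a grey line from the lowest to the highest library and a black tick at the mean of 3. Gpx5 is first in every library, Lcn5 and Clu are lowest in replicate 3, and Mir703 is lowest in replicate 1.

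Ranks 11 to 30 held further luminal proteins beside genes of general cell function. Among the former were Lcn2 with 6245 ± 957 FPKM, Lcn9 with 5772 ± 1183 FPKM and Cst11, a cystatin, with 5352 ± 1350 FPKM (SD, n = 3 each). 9230104L09Rik, which RefSeq now lists as the cystatin-domain gene Cstdc2, had 6150 ± 523 FPKM, and Mfge8, the phosphatidylserine-binding glycoprotein lactadherin, had 3573 ± 831 FPKM. The general genes included Eef1a1, translation elongation factor 1 alpha, at 5392 ± 435 FPKM, Tmsb4x, the actin-binding thymosin beta 4, at 3334 ± 105 FPKM, and Rpl41, a ribosomal protein gene, at 3611 ± 548 FPKM. Crip1, a small LIM-domain protein, Tpt1, Itm2b, Rplp1 and Rps27rt also belonged to this group, and Gm15386, Lypd8, Defb42 and 4 genes described below completed the 30. Rps27rt is a retrogene copy of Rps27, so the assignment of its reads is uncertain. Of the 30 genes, 14 belonged to the secreted families described below and 3 were ribosomal protein genes.

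The libraries agreed more on which genes were abundant than on their order. The 10 first genes of each library shared 5, and 15 genes were among the first 10 of any library. Of the 100 first genes of each library, 85 were common to all 3 and 116 occurred in at least 1.

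The start sites of the leading genes show how their promoters differ in sequence. The windows below, from RefSeq on GRCm38.p6 (the mm10 build), run from 250 bases before to 50 bases after the annotated start, in the direction of the gene, and capitals mark each CG dinucleotide, the base pair context that can be methylated. Gpx5, Lcn8 and Lcn5 are shown for the secreted proteins, and Eef1a1 for the abundant genes of general cell function.
Gpx5, chr13:21292637-21292936, minus strand: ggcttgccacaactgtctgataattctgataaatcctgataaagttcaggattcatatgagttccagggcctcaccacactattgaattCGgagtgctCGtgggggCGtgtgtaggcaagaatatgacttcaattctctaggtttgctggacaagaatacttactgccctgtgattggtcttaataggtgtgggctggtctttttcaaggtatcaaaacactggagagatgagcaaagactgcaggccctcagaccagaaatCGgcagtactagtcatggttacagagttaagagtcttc
Lcn8, chr2:25652868-25653167, plus strand: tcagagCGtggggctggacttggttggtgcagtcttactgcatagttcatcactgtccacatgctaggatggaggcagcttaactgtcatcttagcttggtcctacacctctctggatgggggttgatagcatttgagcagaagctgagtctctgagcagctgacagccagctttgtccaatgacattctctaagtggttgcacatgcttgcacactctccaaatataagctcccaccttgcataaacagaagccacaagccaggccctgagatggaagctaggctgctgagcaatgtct
Lcn5, chr2:25657702-25658001, plus strand: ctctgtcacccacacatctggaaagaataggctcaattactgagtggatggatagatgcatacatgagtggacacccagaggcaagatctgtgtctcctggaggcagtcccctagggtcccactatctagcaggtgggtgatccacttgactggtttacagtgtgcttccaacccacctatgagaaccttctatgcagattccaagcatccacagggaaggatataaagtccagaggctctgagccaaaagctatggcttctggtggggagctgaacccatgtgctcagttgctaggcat
Eef1a1, chr9:78481675-78481974, minus strand: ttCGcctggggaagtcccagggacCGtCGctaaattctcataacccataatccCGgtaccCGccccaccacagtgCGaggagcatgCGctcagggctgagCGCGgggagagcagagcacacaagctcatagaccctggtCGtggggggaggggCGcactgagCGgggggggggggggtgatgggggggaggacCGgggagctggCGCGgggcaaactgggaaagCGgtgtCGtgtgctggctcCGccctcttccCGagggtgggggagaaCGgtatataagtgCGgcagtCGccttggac

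The window of Lcn5 held 0 CG, that of Lcn8 held 1 and that of Gpx5 held 4, against 22 in that of Eef1a1. The same held over the groups. CG observed over expected from the base composition had a median of 0.0954 over the 20 of 26 secreted-family genes of the 100 most abundant that had a window, and of 0.223 over all 77 secreted-family genes detected in all 3 libraries that had one. It was 0.878 over 62 ribosomal protein genes and 0.752 over 9978 genes at 1 FPKM or more in all 3 libraries. Over all 18094 genes of the table with a window it was 0.567. The letters TATAAA, searched in the direction of the gene with the first base 20 to 45 bases before the start, occurred in 3 of those 20 genes, among them Lcn5 at 28 bases, and in 4 of those 77 (5.19%). They occurred in 5 of 73 (6.85%) of the 100 most abundant genes and in 155 of 9978 (1.55%) of the detected genes. Over all genes of the table with a window, detected or not, they occurred in 563 of 18094 (3.11%). Counted by window and not by gene, they occurred in 2.14% of the 32851 windows of the reference table. These counts describe letters in these windows and name no factor.

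A small number of genes held much of the FPKM. The 10 most abundant genes of each library held 14.97%, 18.3% and 20.3% of its total, lowest in replicate 1 and highest in replicate 3. The 100 most abundant held 42.2%, 45.8% and 46.8%, or 44.9 ± 2.42% (SD, n = 3), and the 1000 most abundant 73.7 ± 1.19%. It took 172, 133 and 129 genes to reach 50% of the total, and 1248, 1040 and 1078 to reach 75%.

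**Figure D2:**
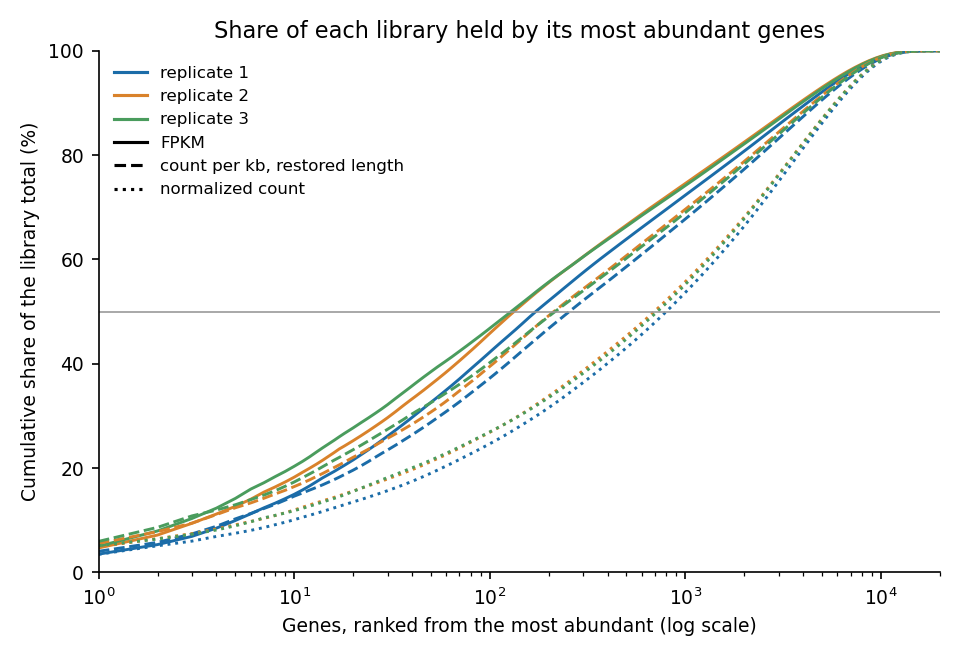
Cumulative share of each library's total (%) against the number of genes ranked from the most abundant (log axis), for FPKM (solid), normalized counts per kb of restored gene length (dashed) and normalized counts (dotted), with 1 colour per library. The grey line at 50% is crossed at 129 to 172 genes by FPKM, 213 to 256 by restored length and 694 to 799 by normalized counts.

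How concentrated the transcriptome looked depended on the unit. By the deposited normalized counts, which are not divided by gene length, the 100 first genes held 26.2 ± 1.29% of the total, and 799, 694 and 719 genes were needed for 50%. Of the 100 first genes by FPKM, 45 were also among the 100 first by normalized counts. The genes at the head were short. The coding length had a median of 462 bases over 94 of the 100 most abundant genes and 1368 bases over 11928 genes detected in all 3 libraries, and 55.3% of the former and 9.13% of the latter were no longer than 500 bases.

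The length by which the authors' FPKM had been divided bears on these ranks. For genes with 1 annotated transcript, 1 FPKM corresponded to a median of 11.9 normalized counts per kb of annotated exon at 3000 to 9000 bases (448 genes), but to 6.37 at 350 to 500 bases (57 genes) and 4.34 at 250 to 350 bases (23 genes). A count in a gene of the last class was thus worth 2.74 times as much FPKM per kb as in the longest genes. The length used was shorter than the annotated exons by a median of 212 bases over 1471 genes (quartiles 202 and 259 bases). Defb25, with 293 annotated bases, had been divided by 83.8 bases and Gpx5, with 1674, by 1419 bases. A level per kb with this shortfall restored (restored length) was therefore computed beside the FPKM for every gene.

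**Figure D3:**
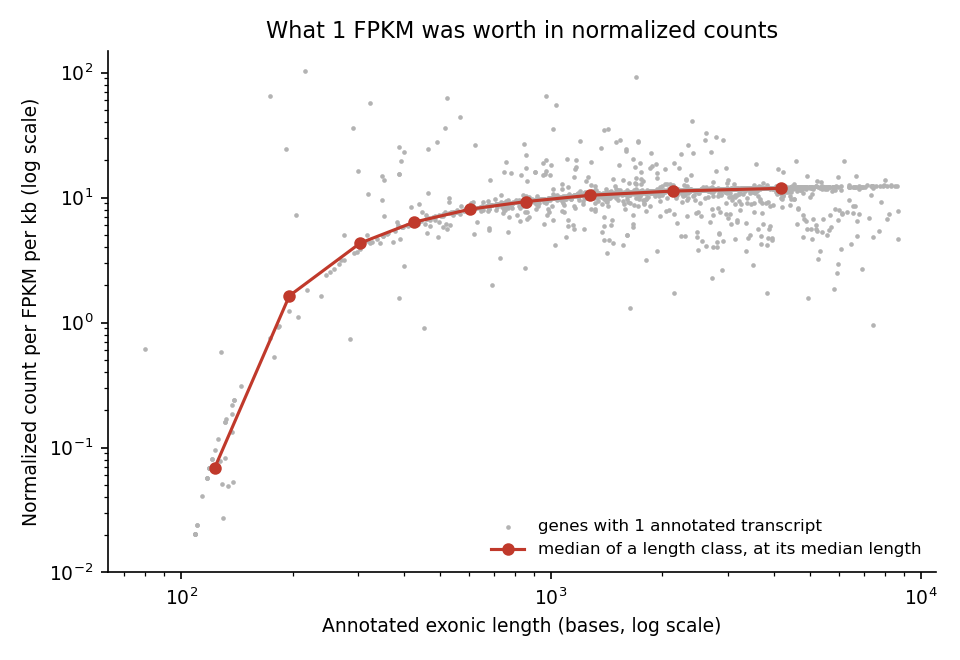
Normalized counts per FPKM and per kb against annotated exonic length (both log axes) for genes with 1 annotated transcript (grey) and the median of 9 length classes, each drawn at its median length (red). The median lies at 11.9 for genes of 3000 to 9000 bases and falls to 4.34 at 250 to 350 bases and to 0.0683 below 150 bases.

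By restored length, the 100 first genes held 39.0 ± 1.56% of the total and 228 ± 24.0 genes held 50% (SD, n = 3). Gpx5 was first in all 3 units. Of the 100 first genes by FPKM, 87 were also among the 100 first by restored length. Defb25 moved from rank 4 to 15 and Defb18 from rank 6 to 28, while Adam7, a sperm-surface protein that the caput makes and passes to spermatozoa, moved from rank 26 to 16 and had rank 3 by normalized counts. Clu moved from rank 7 to 4 and Eef1a1 from rank 16 to 7.

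At the shortest lengths the FPKM and the number of reads parted. Mir703 ranked 5 by FPKM with 1336.41, 16779.8 and 14503.8 FPKM, which rested on an estimated 2, 48 and 39 reads, and it ranked 13197 by normalized counts. Its length of 109 bases had been reduced to 0.175 bases. Mir686, of the same length, ranked 25 by FPKM and 14983 by normalized counts. The mature miRNAs (seed, bases 2 to 8, in capitals) and the hairpins that the counted genes span (mature part in capitals), from RefSeq on GRCm38.p6, are shown because these genes are hardly longer than a read.
mmu-miR-703: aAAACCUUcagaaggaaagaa
microRNA 703: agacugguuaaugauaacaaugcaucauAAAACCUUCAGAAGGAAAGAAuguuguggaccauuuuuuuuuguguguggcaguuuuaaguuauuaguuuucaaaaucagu
mmu-miR-686: aUUGCUUCccagacggugaaga
microRNA 686: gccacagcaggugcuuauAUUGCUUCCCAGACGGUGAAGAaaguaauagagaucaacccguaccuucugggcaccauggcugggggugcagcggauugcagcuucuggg

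The hairpins lie at chr5:98475556-98475664 and chr14:54616677-54616785, both on the minus strand, and the mature miRNAs of 21 and 22 bases share no seed. Reads of an mRNA library do not measure the mature forms. Structural and precursor RNAs as a group, mostly these miRNA genes and the ribosomal RNA precursor Rn45s (906, 1185 and 592 FPKM), took 1.74%, 3.72% and 3.43% of the FPKM and 0.513% of the normalized counts.

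The secreted protein families held the largest share among the gene lists examined. Of their 206 genes in the table, 100 were at 1 FPKM or more in all 3 libraries, 54 were lower and 52 were listed at 0 throughout. Together they held 21.1%, 22.04% and 23.4% of the FPKM, or 22.2 ± 1.13% (SD, n = 3), lowest in replicate 1 and highest in replicate 3. Their share was 11.3% by normalized counts and 19.9% by restored length. With Spag11a and Spag11b counted among them it was 24.8% of the FPKM. The cystatin-domain gene 9230104L09Rik, with 0.862% of the FPKM, was in neither sum.

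Beta-defensins, small antimicrobial peptides of which several coat spermatozoa, held the largest share of these families by FPKM. Their 42 genes, 28 of them at 1 FPKM or more in all 3 libraries, took 6.23%, 6.5% and 8.0% of the total, highest in replicate 3. The share was 3.99% by restored length and 1.05% by normalized counts, so that by these units lipocalins and glutathione peroxidases stood above them. Defb20 had 7550.32, 7020.66 and 8639.68 FPKM, with rank 9 by FPKM and rank 6 by restored length. Defb18 had 5377.24, 7482.27 and 13620.8 FPKM, Defb48 had 4040.11, 6780.35 and 8875.5 FPKM, and Defb47 had 5420.26, 5390.35 and 6010.12 FPKM. Defb18 differed most between libraries among these 4. The widest spread among detected members was that of Defb28, with 132.066, 28.3712 and 5.68135 FPKM. Of the 28 genes, 11 were highest in replicate 3 (39.3%) and 12 lowest (42.9%), against 39.0% and 30.6% of all detected genes.

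Lipocalins, which carry small hydrophobic ligands, held 5.27%, 5.14% and 5.31% of the FPKM, a spread of 0.0888 percentage points (SD, n = 3). Of 11 genes, 8 were at 1 FPKM or more in all 3 libraries. This near constancy of the sum hid movement within it. Lcn5 had 10497.5, 10200.9 and 2533.34 FPKM and Lcn8 had 10553.2, 13222.8 and 17504.4 FPKM, so that in replicate 3 the first was at its lowest and the second at its highest. Lcn9, another epididymal member, had 5026.02, 5153.37 and 7136.2 FPKM, and Lcn2, which binds iron-carrying siderophores, had 5398.71, 6054.24 and 7282.9 FPKM.

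Secreted glutathione peroxidases held 4.43 ± 0.795% of the FPKM and 4.52% of the normalized counts (n = 3), nearly all of it from Gpx5 (99.5%). Gpx3, the plasma form, had 116, 205 and 107 FPKM, and Gpx6 had 31.9, 31.7 and 29.0 FPKM.

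Protease inhibitors and their relatives formed 3 families of unlike size, and whether each member inhibits a protease was not tested. Cystatins, inhibitors of cysteine proteases and their relatives, held 1.52 ± 0.274% of the FPKM through 4 detected genes of 10, with Cst11 at 3959.94, 5439.74 and 6655.18 FPKM, Cst12 at 2148.09, 2099.8 and 3674.61 FPKM and Cst8 at 1812.25, 2152.94 and 2251.87 FPKM. This list went by symbol and left out 9230104L09Rik (Cstdc2), which had a higher mean than Cst11 and held 0.862% of the FPKM. Kazal and whey acidic protein inhibitors held 1.69%, 1.47% and 0.991%, lowest in replicate 3, through 22 of 35 genes. Within that family Wfdc10 was among the steadiest of the abundant genes with 2970.19, 2903.15 and 2932 FPKM, whereas Spink8 had 3140.45, 2982.35 and 1341.41 FPKM. Serpins held only 0.0806 ± 0.0252%, with 27 of 62 genes listed at 0 in all 3 libraries. Their leader Serpina1f had 414.958, 304.081 and 63.0698 FPKM.

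The remaining luminal and surface families were smaller. The RNase A family held 0.640 ± 0.0606% of the FPKM, led by Rnase10 with 1627.81, 1745.54 and 3216.5 FPKM and Rnase9 with 1934.48, 1649.75 and 284.244 FPKM, neighbouring genes for catalytically inactive members that went opposite ways in replicate 3. Clusterin and other luminal proteins held 1.60 ± 0.420%, of which Clu made up 73.3%, and Npc2, a cholesterol-binding protein, had 611, 554 and 391.5 FPKM. CRISP proteins, which bind spermatozoa, held 0.0608 ± 0.0174%, with Crisp1 at 186.232, 162.501 and 393.498 FPKM. Among surface proteins, ADAM metallopeptidases held 0.585 ± 0.120%, of which Adam7 (2624.06, 2951.16 and 3986.03 FPKM) made up 76.0%. The Teddm family of transmembrane epididymal proteins held 0.356%, 0.326% and 0.675%, highest in replicate 3 for each of its 3 detected genes.

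**Figure D4:**
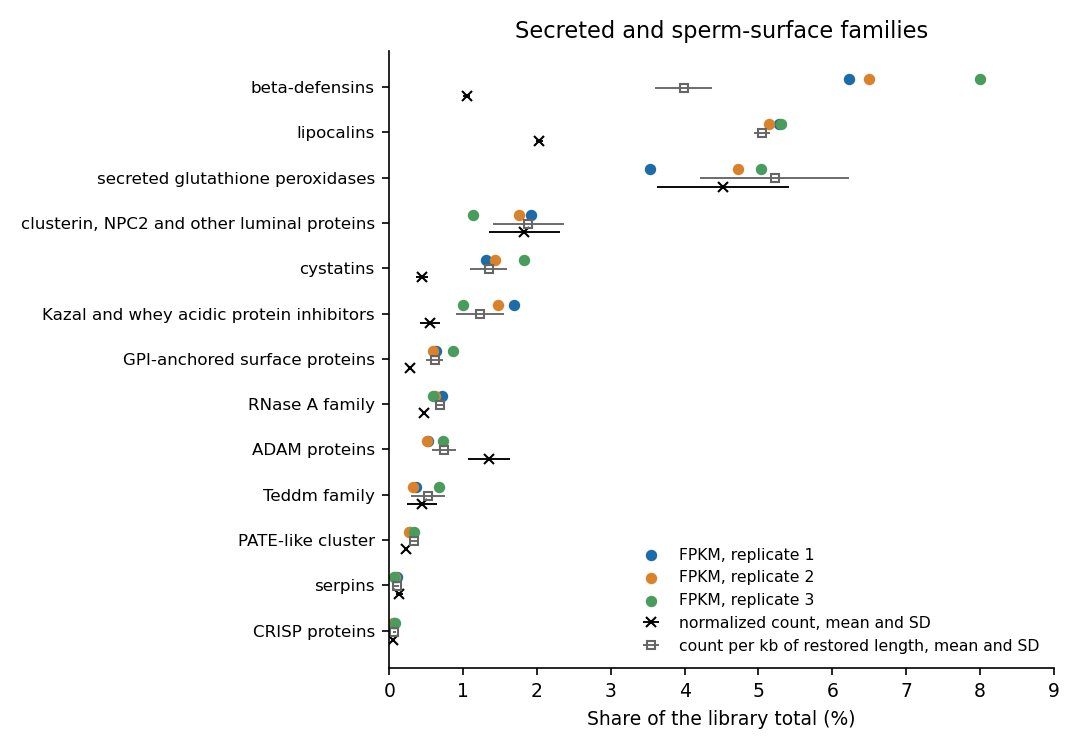
Share of the library total (%) held by each secreted or sperm-surface family, with 1 coloured point per library for FPKM and the mean with SD over 3 libraries for normalized counts (cross) and for normalized counts per kb of restored length (square). Beta-defensins stand at 6.23% to 8.0% by FPKM and at 1.05% by normalized counts, while the secreted glutathione peroxidases have means of 4.43%, 4.52% and 5.22% in the 3 units.

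Some of the abundant genes lie side by side on the chromosomes. Of the 99 most abundant genes with a RefSeq position, 28 had another within 200 kb, in 10 clusters that held 17.1% of the FPKM. The share expected for other genes was not computed, so 28 of 99 is a description only. Not all clusters were families, as Myl6 lay with Rpl41 and Rps26, and Teddm1a with Glul. The largest cluster, at chr2:25466709-25825546 (mm10), held Ptgds, Lcn8, Lcn5, Lcn10 and Lcn9 and 4.18% of the FPKM. The cluster with Defb39, Spag11b and Spag11a at chr8:19052825-19159920 held 2.75%. Cst11, Cst12, Cst8 and 9230104L09Rik at chr2:148768618-148850962 held 2.26%, and Defb48, Defb47 and Defb42 at chr14:62977524-63048606 held 2.16%. The order of the libraries was shared in some clusters and not in others. All 4 genes of the cystatin cluster were highest in replicate 3. In the chr8 cluster Spag11a had 2212.58, 1328.63 and 568.374 FPKM, with replicate 3 lowest, whereas Spag11b was highest there.

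Genes for making and folding proteins held the other large share, mostly through ribosomal protein genes, and were not tied here to the secreted families. Cytosolic ribosomal proteins, 84 of 87 genes at 1 FPKM or more in all 3 libraries, held 12.5 ± 1.25% of the FPKM, 10.5% by restored length and 4.06% by normalized counts, and 37 of them were among the 100 most abundant genes. They were highest in replicate 2 for 74 of 84 genes (88.1%), against 33.0% of all 12466 detected genes. Chaperones and disulphide isomerases of the endoplasmic reticulum, which fold secreted proteins, held 1.11 ± 0.0961%. They were lowest in replicate 1 for 23 of 27 genes, against 38.8% of all detected genes, with Calr, the calcium-binding chaperone calreticulin, at 1266.41, 1810.85 and 1841.64 FPKM and Hspa5 (BiP) at 709.8, 938 and 959 FPKM. Nuclear-encoded subunits of the respiratory chain and ATP synthase held 2.18 ± 0.130%. No gene of the mitochondrial genome was in the table.

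The pathway from the luminal ligands to the IS was read gene by gene. Nell2, the testis-made ligand, had 0.394, 0.0413 and 0.110 FPKM, on an estimated 10, 2 and 5 reads. Gm1673, which encodes its partner NICOL, had 8.69, 9.09 and 6.05 FPKM from the remaining allele, on 16, 32 and 20 reads. Ros1, the receptor on IS cells, had 40.7, 41.9 and 48.0 FPKM and Ptpn6, a phosphatase known to restrain ROS1, 12.6, 14.9 and 12.2 FPKM. The kinase gene Mapk3 (ERK1) stood at 49.0 ± 6.6 FPKM (SD, n = 3). Of the ETS transcription factors downstream of ERK, Etv5 was the highest with 148, 149.7 and 195 FPKM, Etv4 had 46.9, 54.9 and 64.0 FPKM and Etv1 13.6, 10.5 and 14.9 FPKM. The protease genes Ovch2 (578.273, 626.094 and 846.602 FPKM) and Adam28 (727.982, 701.816 and 1158.41 FPKM) were more abundant than any of these. Adam3, whose product is carried by spermatozoa, had 2.01, 0.929 and 0.676 FPKM and Adam2 0.748, 0.261 and 0.305 FPKM. Of the 13 genes listed for the pathway, 12 were detected in all 3 libraries and 9 of these (75%) were highest in replicate 3, against 39.0% of all detected genes.

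Markers of the proximal epididymis were present in every library. The 4 markers of caput principal cells and the 4 of IS principal cells were all at 1 FPKM or more in every library and held 6.01 ± 0.498% and 3.02 ± 0.579% of the FPKM (SD, n = 3). Clear and narrow cell markers held 0.0160%, with Foxi1, their transcription factor, at 34.2, 42.8 and 37.1 FPKM, and basal cell markers 0.0205%, with Krt5 at 53.9, 54.0 and 54.8 FPKM. Smooth muscle markers held 0.223%, mostly through Actg2 (1036.94, 1083.71 and 1328.78 FPKM). Fibroblast and endothelial markers held 0.0344% and 0.00583%, ciliated efferent duct markers 0.00340%, and all 6 markers of spermatids and sperm were detected, with a sum of 0.0169%. Of 6 T and B cell markers and of 6 adipocyte markers, 0 were at 1 FPKM or more in all 3 libraries. The adipocyte markers were not alike in the libraries, with sums of 2.66, 1.18 and 12.3 FPKM. In bulk tissue, fewer cells of a type and less RNA per cell cannot be told apart.

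For most genes the 3 libraries lay close together. Over the 12466 detected genes the coefficient of variation (CV, the SD over the mean of 3 libraries) had a median of 9.92%, against a median of 5.21% computed from counting error alone. Across these genes, log2(FPKM + 1) had Pearson correlations of 0.989 between replicates 1 and 2, 0.981 between 1 and 3 and 0.985 between 2 and 3, as a description of libraries that share their annotation. The spread did not keep falling with abundance. The median CV was 12.5% at 1 to 10 FPKM, 7.99% at 10 to 100, 9.83% at 100 to 1000 and 15.2% for the 100 genes at 1000 FPKM or more, where counting error was 1.05%. The steadiest of the 1000 most abundant genes were Tceb2, an elongin subunit, with 362.765, 362.959 and 359.84 FPKM, and Ywhaq, a 14-3-3 protein, with 115.465, 116.249 and 115.119 FPKM. They were followed by Snx22, Ap2m1, Uqcr10, Sdf2, Srp14, Vamp2, Tcf25 and Rbm11, all with a CV of 0.930% or less. The reference genes Actb (455.859, 413.695 and 502.206 FPKM) and Gapdh (402.78, 385.841 and 322.707 FPKM) had CVs of 9.68% and 11.4%.

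A CV above 50% was found for 166 genes (1.33%). Of these, 86 were highest in replicate 1, against 28.1% of all detected genes, and 86 lowest in replicate 3, against 30.6%. A mean of 1 to 10 FPKM, where the median counting error was 8.23%, was found for 84 of the 166, and replicate 1 was the shallowest library. Among the 9329 detected genes with a mean of at least 5 FPKM, replicate 3 lay over 2-fold below the mean of the other libraries for 104 genes and over 2-fold above it for 42. The numbers were 28 and 48 in replicate 1 and 31 and 18 in replicate 2. Replicate 3 thus had the most genes over 2-fold below the other libraries.

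Most genes listed for the IS were highest in replicate 3, on a list chosen with earlier results of these data known. Of 15 genes listed as IS genes, 14 were highest in replicate 3, against 39.0% of all detected genes. Their summed share was 5.42%, 5.95% and 8.16% of the FPKM, and their median level in replicate 3 was 1.41 times the mean of the other libraries, against 1.02 over all detected genes. Rnase10, Cst12, Defb48 and Teddm2 were the furthest above it among those over 100 FPKM, with Teddm2 at 613.024, 403.006 and 1543.11 FPKM. Ggt1, gamma-glutamyltransferase 1, was the exception with 136, 152 and 82.5 FPKM. The 11 genes listed for the caput outside the IS held 8.51%, 9.64% and 8.5%, and they were divided. Of these 11, 6 were highest in replicate 3 (54.5%, against 39.0% of all detected genes) and 3 were lowest there. Their median level in replicate 3 was 1.26 times the mean of the other libraries, so a higher level there was not confined to the IS list. In replicate 3, Lcn5 stood at 0.245, Spink8 at 0.438 and Clu at 0.518 times the mean of the other libraries, whereas Gpx5 stood at 1.26 and Crisp1 at 2.26 times.

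**Figure D5:**
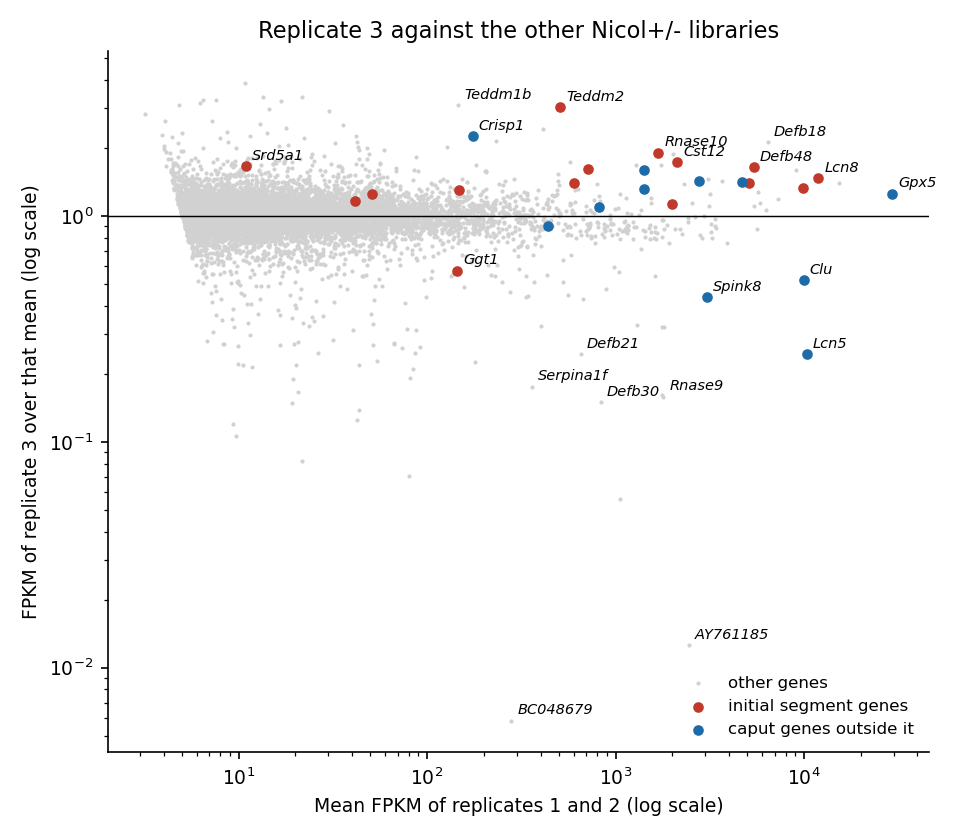
FPKM of replicate 3 over the mean of replicates 1 and 2 against that mean (both log axes) for 9329 genes with a mean of at least 5 FPKM, with the 15 IS genes in red and the 11 other caput genes in blue. All IS genes but Ggt1 lie above the line at 1, and Lcn5, Spink8 and Clu lie below it with Rnase9, Defb30 and AY761185.

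Other genes with a mean of at least 100 FPKM lay further below in replicate 3. AY761185 had 3621.72, 1278.58 and 30.8049 FPKM, on an estimated 8441, 5696 and 129 reads, and BC048679 had 392.126, 168.471 and 1.63307 FPKM. Both were highest in replicate 1, and the gap to replicate 3 was larger than counting error. Gm6792 (2040.5, 1510.38 and 284.948 FPKM), Defb30 (1009.66, 658.217 and 124.965 FPKM) and Defb21 (760.083, 549.502 and 159.709 FPKM) had the same order.

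Markers of other cells also differed between the libraries. All 6 fibroblast markers and 5 of 6 endothelial markers were highest in replicate 3, against 39.0% of all detected genes. So were 4 of 5 detected macrophage and dendritic cell markers and 4 of 5 detected basal cell markers. All 6 fibroblast and all 6 endothelial markers were lowest in replicate 2, against 30.6% of all detected genes. The fibroblast and endothelial lists had sums of 0.0369%, 0.0268% and 0.0395% and of 0.00641%, 0.00439% and 0.00668% of the FPKM, so for both lists replicate 2 was lowest and replicate 1 close to replicate 3. The macrophage and dendritic cell markers summed to 0.0161%, 0.0131% and 0.0137% and the basal cell markers to 0.0210%, 0.0193% and 0.0210%, neither highest in replicate 3 alone. The 6 adipocyte markers, all low, summed to 0.000398%, 0.000159% and 0.00168%, highest in replicate 3. For smooth muscle, 5 of 6 markers were lowest in replicate 3, against 30.6% of all detected genes, with sums of 0.232%, 0.206% and 0.232%. Their part in the order of the region-specific genes was not tested.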

How the data were processed

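RNA of IS-caput epididymis was sequenced from stranded mRNA libraries as single-ended reads of 101 bases. According to the submitters' processing notes and the study's methods, TopHat2 2.1.1 aligned the reads to the mm10 genome and Cufflinks 2.2.1 computed expression. For 24346 genes the deposited table holds a normalized FPKM, as scaled by the authors, and a normalized count, a signal per gene that the authors had also scaled between libraries. How the libraries were scaled, which annotation was used and how reads matching several places were counted is not stated in these sources, which leaves values of paralogs uncertain.

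Only the 3 Nicol+/- libraries were used, as a description with no test. Between 98.0% and 98.5% of the normalized counts above 0 came out whole (within 0.02) after division by 1 step per library. This gave the depth and the counting error, which covers counting only. Shares were taken within each library, and genes were called detected at 1 FPKM. The length behind each FPKM was estimated from counts over FPKM, and the median shortfall against GENCODE M21 exons was added back to give the restored length. RefSeq matched 24260 gene IDs (99.6%). A gene with several promoter windows counted once, with its median CG value, and as holding TATAAA if any window did. Functions were tested on simulated data. The tools were Python 3.11.15, numpy 2.4.6, pandas 2.3.3, scipy 1.17.1 and matplotlib 3.10.9.

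The gene lists, by symbol, and the members were chosen with earlier results of these data known. The rule for named genes took the 30 highest means, up to 4 leaders and the widest spread of each list, the 10 largest CVs at a mean of 5 FPKM or more, the 10 smallest among the 1000 most abundant, and genes the study names. Other genes, among them Gm6792 and Defb21, were chosen after their values were seen. Alternatives were other units, thresholds, scalings, totals and leaving out each library. The level by restored length, the total without structural and precursor RNAs and the family with Spag11a and Spag11b were chosen after seeing the data.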

Additional observations from a re-analysis of the deposited data

How the results depend on the processing

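Of 52 alternatives, 36 moved a result by less than the spread between libraries, or a count by less than 1.5 times, and 16 moved it by more. For the median CV the spread was the SD of its values with each library left out, 0.554 percentage points. Those values were also among the alternatives judged by it. The 100 most abundant genes held 26.2% of the normalized counts and 39.0% of counts per kb of restored length, and 50% was reached with 737 and 228 genes. The secreted families held 11.3% and 19.9% in these units, 23.3% among protein-coding genes only, and 24.8% of the FPKM with Spag11a and Spag11b. The median CV was 10.7% with each library scaled to the same sum (TPM), 8.44% for genes at 5 FPKM in all 3 libraries and 9.13% from the SD of log2(FPKM + 1), and 69 of the genes at 5 FPKM had a CV above 50%.

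Leaving out each library in turn gave 44.0% to 46.3% for the 100 most abundant genes, 131 to 152.5 genes for 50%, 21.6% to 22.7% for the secreted families, and 12620 to 12695 detected genes. The median CV of 2 libraries was 7.62% to 8.73%, and 154 to 263 genes had a CV above 50%, with 263 without replicate 2. A CV of 2 values and a CV of 3 values are not on the same scale, so these are not directly comparable with the values over 3 libraries. Without replicate 3, the IS genes held 5.68% of the FPKM in place of 6.51%. Detection at 5 FPKM, 0.1 FPKM or 10 normalized counts gave 8828, 15489 and 13903 genes. No paired analysis was possible because a single group was described and no test was run.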

Other observations

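Genes outside the families described above also differed between the control libraries. The immediate early genes Fos, Fosb, Dusp1 and Atf3, which cells switch on within minutes of a stimulus, were chosen after their values were seen. Fos had 20.823, 22.6955 and 73.1223 FPKM, Fosb 5.98, 6.9 and 20.97 FPKM, Dusp1 7.82, 7.30 and 24.6 FPKM and Atf3 4.76, 7.71 and 19.8 FPKM. All 4 were highest in replicate 3, but chosen in this way they say nothing about immediate early genes as a group.

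The widest spreads among genes with a mean of at least 5 FPKM were those of Wfdc17, a whey acidic protein relative, with 38.9, 4.55 and 1.78 FPKM, and of Mir719, Rpl37rt and Gm3428, each highest in replicate 1. Rpl37rt is a retrogene copy and Mir719 rested on an estimated 3.3, 0.9 and 0.2 reads. Adamts13, the protease that cleaves von Willebrand factor, had 29.0, 4.30 and 4.46 FPKM. H2-L, a class I histocompatibility gene with close paralogs, had 3.73, 23.2 and 45.5 FPKM, and Degs1, a sphingolipid desaturase, had 11.3, 10.3 and 42.1 FPKM. Adamts13 was thus apart in replicate 1 and Degs1 in replicate 3, while the 3 values of H2-L lay far from each other.

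Metallothioneins, which bind zinc and copper, were lowest in replicate 3 for each of 3 detected genes, against 30.6% of all detected genes. Their sums of 1013, 758 and 717 FPKM and those of Mt1, 593, 461 and 457 FPKM, set replicate 1 apart, with replicates 2 and 3 close together. Of 11 aquaporin genes, which form water channels, 3 were at 1 FPKM or more in all 3 libraries. Aqp9 led with 37.6, 33.8 and 35.3 FPKM, followed by Aqp1 with 29.0, 23.2 and 24.1 FPKM. The steroid 5 alpha reductase gene Srd5a2, whose enzyme makes dihydrotestosterone, had 115, 162 and 154 FPKM, and Srd5a1 had 11.2, 10.7 and 18.1 FPKM.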
